A study of Mus musculus with 4 samples.

Results

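Fabp5 and 9 genes of fatty acid synthesis and desaturation (Fasn, Acaca, Acly, Scd1, Scd2, Elovl6, Fads1, Fads2 and Srebf1) were followed in DN4 thymocytes with and without an inducible deletion of Ikaros. DN4 is the last thymic stage that lacks both CD4 and CD8. The 10 genes are among 19938 measured on the array through probe sets with exactly 1 gene symbol. The group was chosen by the lower Fabp5 values of Cre+ mice in this same comparison, and the other 9 genes were joined to it for their role in the pathway. Its Cre+ against Cre- values, with limma's intervals and calls, are therefore given as a description only, and nothing is supported with them. Each gene was represented by its probe set with the highest mean, and the other probe sets of Fabp5 and Acaca are given beside it.

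All 4 mice carried floxed alleles of Ikzf1, the Ikaros gene (Ikf/f), and all were given daily tamoxifen (50 mg/kg, 4 days), with sorting 24 h after the last dose. The 2 Cre+ mice (129 and 135) also carried Rosa26-CreERT2, a tamoxifen-dependent recombinase expressed from a ubiquitously active locus, and the 2 Cre- mice (131 and 137) did not. The treatment field of the labels gives the Cre+ genotype for all 4 mice, so the groups rest on the sample titles and the design text. Because the Cre- mice had no recombinase, loss of Ikaros and recombinase activity as such cannot be told apart, and the recombinase was not limited to thymocytes. The sources used here give no strain or age.

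Each mouse gave 1 array, and the number of arrays limits the precision of every value. The log2 values lay between 3.14 and 14.4, array medians lay between 6.85 and 6.88, and correlations between arrays ranged from 0.994 to 0.997. By Xist and Kdm5d each group held 1 female (129, 131) and 1 male (135, 137). Ikzf1 itself read 12.06 and 11.99 in Cre+ cells against 12.07 and 12.11 in Cre- cells. The position of its probes relative to the floxed part was not analysed here, and this value checks nothing. Loss of the protein rests on the western blot named in the design text.

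Cytosolic fatty acid synthesis starts from citrate, which Acly cleaves to acetyl-CoA. Acaca carboxylates this to malonyl-CoA, and Fasn builds the chain. Elovl6 lengthens the product, Scd1 and Scd2 place the first double bond, and Fads1 and Fads2 desaturate polyunsaturated chains. Srebf1 encodes SREBP1, the membrane-bound transcription factor known to drive these genes, and the related SREBP2 mainly drives sterol synthesis. Fabp5 encodes a small cytosolic carrier that binds fatty acids and can deliver them to the nuclear receptor PPAR-delta.

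The windows upstream of 3 members are shown because the factors that act with SREBP at lipogenic promoters, NF-Y and Sp1, bind short boxes that can be read in them. Fasn and Acly were lower in both Cre+ mice, and Fads2 was not. Each run is the 250 bases before the annotated start, 5′ to 3′ on the gene's strand, from RefSeq on GRCm38.p6. Capitals mark CCAAT (the NF-Y box) and GGGCGG (the Sp1 box) on either strand.
Fasn, chr11:120824548-120824797, minus strand: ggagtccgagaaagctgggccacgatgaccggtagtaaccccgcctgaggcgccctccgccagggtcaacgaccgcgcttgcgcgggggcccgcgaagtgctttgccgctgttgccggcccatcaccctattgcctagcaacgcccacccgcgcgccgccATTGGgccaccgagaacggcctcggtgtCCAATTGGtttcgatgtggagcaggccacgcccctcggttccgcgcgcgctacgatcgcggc
Acly, chr11:100528001-100528250, minus strand: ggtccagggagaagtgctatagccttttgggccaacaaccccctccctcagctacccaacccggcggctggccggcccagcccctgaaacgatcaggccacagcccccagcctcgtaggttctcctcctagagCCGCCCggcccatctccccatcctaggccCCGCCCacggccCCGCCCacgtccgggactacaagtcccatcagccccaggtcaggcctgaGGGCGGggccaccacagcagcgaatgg
Fads2, chr19:10101504-10101753, minus strand: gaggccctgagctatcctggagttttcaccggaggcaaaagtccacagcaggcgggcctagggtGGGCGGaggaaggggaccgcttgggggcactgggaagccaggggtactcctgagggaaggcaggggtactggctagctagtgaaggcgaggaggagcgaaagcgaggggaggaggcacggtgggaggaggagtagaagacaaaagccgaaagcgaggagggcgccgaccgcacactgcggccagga

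The Fasn window held 3 CCAAT matches and no GGGCGG, and 2 of the 3 overlap on opposite strands in CCAATTGG. The Acly window held 4 GGGCGG boxes and no CCAAT, and the Fads2 window held 1 GGGCGG. Such boxes are common. CCAAT was found in 33.8% and GGGCGG in 32.7% of all 32851 windows of the same length. Of the 10 genes, 6 were matched to the promoter table, with 8 windows, and Fabp5, Scd1, Scd2 and Fads1 were not. CCAAT was in 3 of the 8 windows and GGGCGG in 4. Neither box was in the windows of Acaca, lower in both Cre+ mice, and of Elovl6, which was not. Both boxes were found among the windows of Srebf1, for which the groups overlapped. The sterol response element TCACNCCAC was in 0 of these 8 windows and in 1.05% of all windows. The E-box CACGTG was in 0 of 8 and in 6.02% of all. TGGGAA, a core bound by Ikaros, was in 4 of 8 (those of Acaca and Fads2 and 2 of the 3 of Srebf1) and in 21.6% of all. These matches describe letters in a short window and are not binding sites.

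Fabp5 read 10.83 and 10.94 in Cre+ cells against 11.58 and 11.44 in Cre- cells, on the log2 scale. Both Cre+ mice were below both Cre- mice, and the gaps within the groups (0.117 and 0.148) were smaller than each of the 4 Cre+ minus Cre- pair differences, which ran from -0.76 to -0.49. The difference was -0.62 (limma's moderated SE 0.07, 95% interval -0.81 to -0.44, 2 mice a group), so that the Cre+ level was 64.9% of the Cre- level. In sorted cells measured in bulk, fewer cells with the transcript and less of it per cell cannot be told apart. The second Fabp5 probe set read 10.58 and 10.70 in Cre+ cells against 11.35 and 11.20, a difference of -0.63 (SE 0.07). After centring, these 2 profiles lay 0.0026 apart, nearer than any other gene to Fabp5. They are not counted as 2 measurements, since shared probe sequence or related gene copies were not analysed here.

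**Figure D1:**
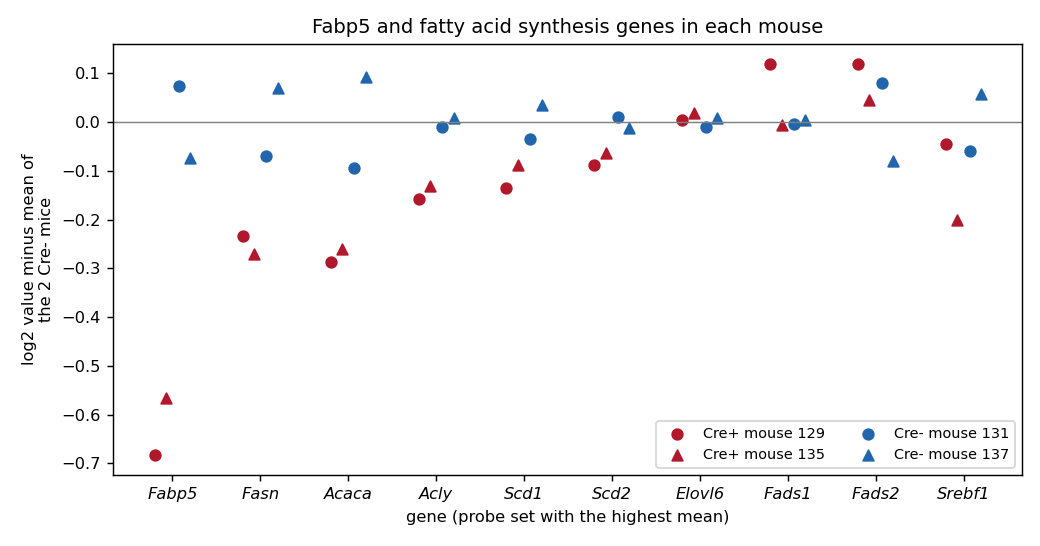
Log2 value of each gene in each mouse, with the average of the 2 Cre- mice set to 0, Cre+ mice in red, Cre- mice in blue and marker shape for the mouse. Fabp5 lies well below 0 in both Cre+ mice, Fasn, Acaca, Acly, Scd1 and Scd2 lie below the Cre- mice by less, and the colours mix for Elovl6, Fads1, Fads2 and Srebf1.

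The 3 enzymes of the synthetic core were lower in both Cre+ mice, by less than Fabp5. Fasn, the fatty acid synthase gene, read 10.99 and 10.95 in Cre+ cells against 11.15 and 11.29 in Cre- cells. Its difference was -0.25 (SE 0.06, 95% interval -0.41 to -0.09), a Cre+ level of 84.0% of the Cre- level. Acaca, which makes malonyl-CoA, read 9.95 and 9.97 against 10.14 and 10.33. It differed by -0.27 (SE 0.08, 95% interval -0.49 to -0.06), and by -0.18 without mouse 137. The other Acaca probe set read 9.17 and 9.16 against 9.25 and 9.43, a difference of -0.17 (SE 0.09) whose interval of -0.41 to 0.07 included 0. Acly, at the entry of the pathway, read 11.23 and 11.26 against 11.38 and 11.40, and differed by -0.14 (SE 0.04, 95% interval -0.25 to -0.04). For all 3 enzymes the groups did not overlap, and the Cre+ mice lay close together. The 2 Cre- mice differed by more for Fasn and Acaca (0.139 and 0.187) than for Acly (0.017).

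The delta-9 desaturases were lower by smaller amounts. Scd2, the form that predominates in many tissues outside the liver, read 12.65 and 12.67 in Cre+ cells against 12.75 and 12.72 in Cre- cells. Its difference was -0.08 (SE 0.03, 95% interval -0.14 to -0.01), a Cre+ level of 94.9% of the Cre- level. Scd1, best known from liver and fat, read 6.86 and 6.90 against 6.96 and 7.03. It differed by -0.11 (SE 0.10), with an interval from -0.36 to 0.14. The groups did not overlap for either gene. The genes Scd1 and Scd2 lie near each other on chromosome 19, with 1 protein-coding gene annotated between them in GRCm38.p6. Fasn, Acaca, Acly and Srebf1 lie on chromosome 11, as Ikzf1 does.

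The elongase and the polyunsaturated fatty acid desaturases did not separate the groups. Elovl6 read 10.15 and 10.16 in Cre+ cells against 10.13 and 10.15 in Cre- cells, a difference of 0.01 (SE 0.06, 95% interval -0.14 to 0.16). Fads1, the delta-5 desaturase gene, read 11.61 and 11.49 against 11.49 and 11.50, a difference of 0.06 (SE 0.05, 95% interval -0.08 to 0.20). Mouse 129 alone lay above the Cre- mice, and without it the difference was -0.0055. Fads2, the delta-6 desaturase gene next to Fads1 on chromosome 19, read 11.37 and 11.30 against 11.33 and 11.17, a difference of 0.08 (SE 0.07, 95% interval -0.09 to 0.26). Leaving out one Cre- mouse moved this value to 0.0022 (mouse 137 omitted) or 0.16 (mouse 131 omitted). The groups overlapped for all 3 genes. None of the 3 intervals reached the difference of Fasn or Acaca.

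Srebf1 read 9.25 and 9.10 in Cre+ cells against 9.24 and 9.35 in Cre- cells. The groups overlapped, with mouse 129 level with mouse 131 and mouse 135 below mouse 137 by 0.26. The difference was -0.12 (SE 0.10), with an interval from -0.37 to 0.12 that holds both no change and the values of Fasn and Acaca. Omitting mouse 135 gave -0.04, and omitting mouse 129 gave -0.20. The isoforms SREBP1a and SREBP1c, and the processing that releases the active protein, were not measured by this value.

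**Figure D2:**
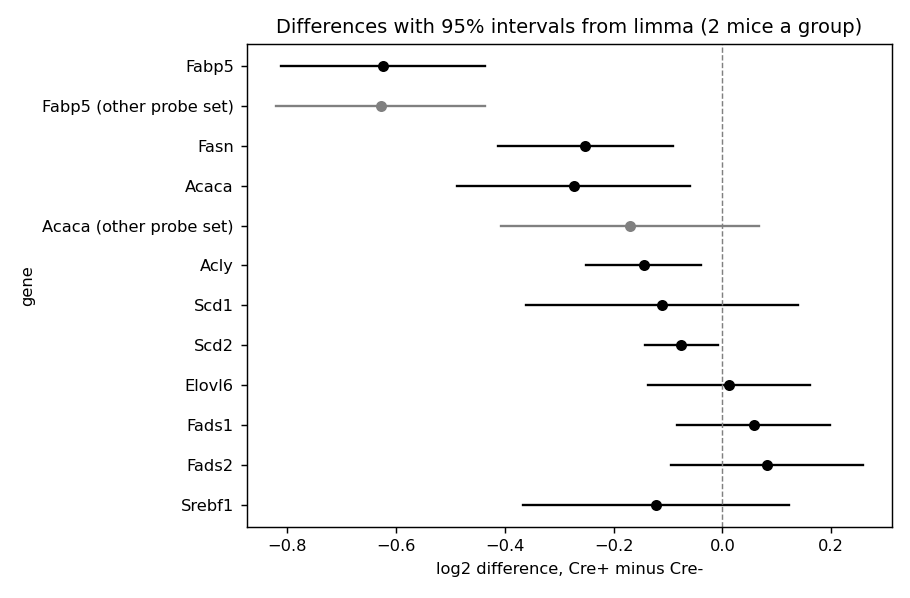
Log2 difference between Cre+ and Cre- mice (points) with limma's 95% interval (lines) for every probe set of the 10 genes, 2 mice a group, other probe sets of a gene in grey. The Fabp5 intervals end at -0.44, while those of Scd1, Srebf1, Elovl6, Fads1, Fads2 and the other Acaca probe set include 0.

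Whether the pathway followed Fabp5 was read within each array, as the Fabp5 value minus that of each other member. All 9 of these comparisons reuse the 4 Fabp5 values by which the gene was chosen, so their direction was largely fixed beforehand and only the sizes are described. The Cre+ minus Cre- change of this within-array difference was smallest in size for Acaca (-0.35, between -0.14 and -0.56 over the 4 pairs of mice) and Fasn (-0.37, between -0.15 and -0.59). It was -0.48 for Acly, -0.55 for Scd2, -0.50 for Srebf1 and -0.71 for Fads2. On the log2 scale, the Acaca and Fasn differences were 43.8% and 40.4% of the Fabp5 difference, and those of Acly and Scd2 were 23.1% and 12.1%.

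All 10 genes lay above the median level of all probe sets, so no filter on dim probe sets removed any of them. Scd1 lay nearest to that median of 6.85, with means of 6.88 in Cre+ and 6.99 in Cre- mice. Of the 9 genes besides Fabp5, 6 had lower means in Cre+ mice and 3 higher, with a median difference of -0.11. Over all 19938 genes the median was -0.01, and 54.1% had lower means. In 5 of the 9 (Fasn, Acaca, Acly, Scd1 and Scd2) both Cre+ mice lay below both Cre- mice, and in 0 of the 9 above them. Among all genes 20.3% did not overlap in the lower and 16.1% in the higher direction. The median was -0.10 between the female mice and -0.12 between the male mice. Over all 35556 probe sets limma called 0 (0%) at an adjusted p under 0.05, the members included, and 2356 (6.63%) fell under 0.05 before adjustment. When only the 21789 probe sets with 1 gene symbol were tested, 0.285% were called lower and 0.936% higher. Of the 10 members, 1 was called there, Fabp5, which was chosen for this difference.

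The wider pathway was read from 7 lists of other fatty acid genes, 144 genes in all, of which 134 were measured. Their means were lower in 60 and higher in 74, with a median difference of 0.01. Groups did not overlap in the lower direction for 20.9% and in the higher for 21.6%, against 20.3% and 16.1% of all genes. None passed over all probe sets (limma), and 17 (12.7%) had an unadjusted p under 0.05, against 6.86% of all genes. Among probe sets with 1 gene symbol 2 of the 134 passed, Insig1 in the lower and Acaa2 in the higher direction. Of all 19938 genes 59 passed there as lower and 190 as higher.

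Genes of acetyl-CoA supply and chain building had lower means in 11 of 16 cases, with a median of -0.05. In 9 of the 16 (56.2%) the groups did not overlap in the lower direction, against 20.3% of all genes. In 3 (18.8%) they did not in the higher direction, against 16.1% of all genes. Slc25a1, which exports the citrate that Acly uses, read 10.28 and 10.26 in Cre+ cells against 10.47 and 10.43 in Cre- cells, a difference of -0.18 (SE 0.06). Oxsm, the condensing enzyme of mitochondrial fatty acid synthesis, differed by -0.25 (SE 0.08). Acss1, the mitochondrial acetyl-CoA synthetase gene, differed by 0.24 (SE 0.08), or by 0.15 without mouse 129. None of these 3 passed the adjusted threshold in either test.

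Among the other genes of elongation and desaturation 10 of 17 had lower means, with a median of -0.03. The 3 with the smallest p were Elovl5 (-0.09, SE 0.03), which elongates polyunsaturated chains, the dihydroceramide desaturase gene Degs1 (-0.17, SE 0.08) and Hsd17b12 (-0.12, SE 0.07), a reductase of the elongation cycle. None of them passed, and the Degs1 value lay between -0.28 and -0.06 with one Cre- mouse omitted, the latter without mouse 137. In 6 of the 17 (35.3%) the groups did not overlap in the lower direction, against 20.3% of all genes. In 2 (11.8%) they did not in the higher, against 16.1% of all genes.

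Regulators of SREBP and of lipogenesis went both ways, with 11 of 27 lower and a median of 0.03. Insig1, which holds SREBP precursors in the endoplasmic reticulum and is itself an SREBP target, read 9.99 and 10.23 in Cre+ cells against 10.58 and 10.69 in Cre- cells. It differed by -0.52 (SE 0.10), with limma's adjusted p = 0.359 over all probe sets and 0.0358 among those with 1 gene symbol. Srebf2, the SREBP2 gene, read 10.79 and 10.71 against 10.91 and 11.04, a difference of -0.23 (SE 0.07) that passed in neither test. Rxra, the common partner of LXR and PPAR receptors, read 7.86 and 7.87 against 7.10 and 7.46. It differed by 0.58 (SE 0.15), the highest value of the list, and did not pass.

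Lists further from synthesis had medians near 0. Groups did not overlap in the higher direction for 33.3% of glycerolipid, 33.3% of uptake and 25% of oxidation genes, against 16.1% of all genes. In the lower direction the shares were 5.56%, 6.67% and 10.7%, against 20.3% of all genes. For glycerolipid synthesis 12 of 18 genes had higher means (median 0.04), with values of 0.27 for Agpat2 and 0.15 for Lclat1, both acyltransferase genes, and 0.09 for Lpcat1. For fatty acid oxidation and PPAR genes 18 of 28 had higher means (median 0.03). Acaa2, the mitochondrial thiolase gene of the last step of beta-oxidation, read 11.85 and 11.85 in Cre+ cells against 11.61 and 11.58 in Cre- cells. It differed by 0.26 (SE 0.04), with limma's adjusted p = 0.229 over all probe sets and 0.0252 among those with 1 gene symbol. Decr1 (0.25, SE 0.08) and the PPAR target Angptl4 (-0.24, SE 0.08) did not pass. Ppard, the PPAR-delta gene, read 9.01 and 9.06 against 8.98 and 9.02, a difference of 0.03 (SE 0.08). For uptake and activation 8 of 15 had higher means (median 0.01), and Slc27a2, Acsl4 and Lpl differed by 0.44, -0.16 and 0.17 without passing.

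Among other lipid-binding proteins 8 of 13 genes had higher means, with a median of 0.01, but 8 of the 13 lay under the 25th percentile of the level of all probe sets. The lowest value was that of Pmp2, -0.12 (SE 0.08), and Fabp12 differed by 0.06 (SE 0.07). The sterol carrier gene Scp2 had the highest value, 0.36 (SE 0.13), and did not pass. Fabp4, the adipocyte form, read 4.73 and 4.66 with Cre against 4.67 and 4.69 without, and differed by 0.01 (SE 0.07).

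**Figure D3:**
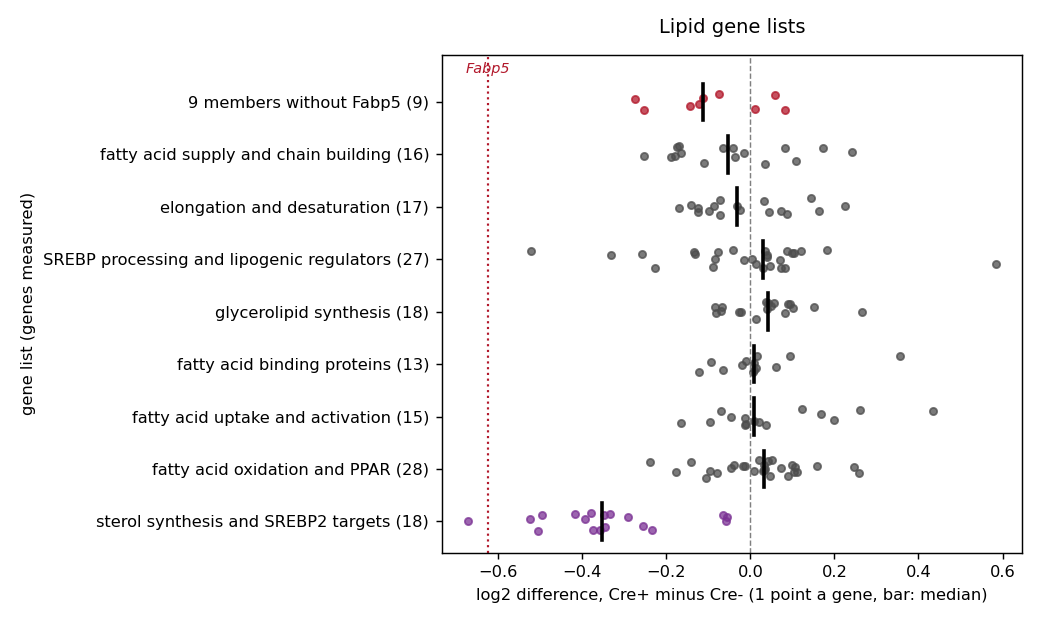
Log2 difference between Cre+ and Cre- mice for each measured gene of the 9 members besides Fabp5 (red), of 7 lists of other fatty acid genes (grey) and of sterol synthesis (purple), with black bars at the medians and a dotted line at Fabp5. The medians run from -0.11 for the members and -0.05 for supply to 0.04 for glycerolipid synthesis, and the sterol list stands at -0.35.

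Sterol synthesis genes, the SREBP2 branch, had a lower median than the fatty acid genes. All 18 measured genes of 23 listed had lower means, with a median of -0.35. In 16 (88.9%) the groups did not overlap in the lower direction, against 20.3% of all genes. Among probe sets with 1 gene symbol, where 59 of all 19938 genes passed as lower, 5 of the 18 did. These were Lss (-0.67, SE 0.10), Hmgcs1 (-0.52, SE 0.09), Fdps (-0.42, SE 0.07) and, named after their values were seen, Idi1 (-0.50) and Fdft1 (-0.39). Acaca, the lowest of the 9 fatty acid genes, was at -0.27, while 13 of the 18 sterol genes were lower than that. The lists share the same 4 arrays, and the difference between their medians was not tested.

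The 5 genes whose centred values in the 4 mice lay nearest to Fabp5 were Cdh1, Acot5, Bcl11a, Bcat1 and Lss, with root mean square distances between 0.040 and 0.059 on the log2 scale. Cdh1 encodes E-cadherin and read 7.35 and 7.58 in Cre+ cells against 8.16 and 8.01 in Cre- cells. Acot5, a peroxisomal acyl-CoA thioesterase gene, read 6.97 and 6.97 against 7.65 and 7.57. Bcl11a, a transcription factor gene of progenitors and B cells, differed by -0.58 (SE 0.14), and Bcat1, which starts the breakdown of branched-chain amino acids, by -0.59 (SE 0.11). In all 5 both Cre+ mice lay below both Cre- mice. With 4 arrays such a likeness mainly picks genes with a difference of the same size. None of the 9 fatty acid genes was among the 5, which follows from their smaller differences and adds nothing to them.

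**Figure D4:**
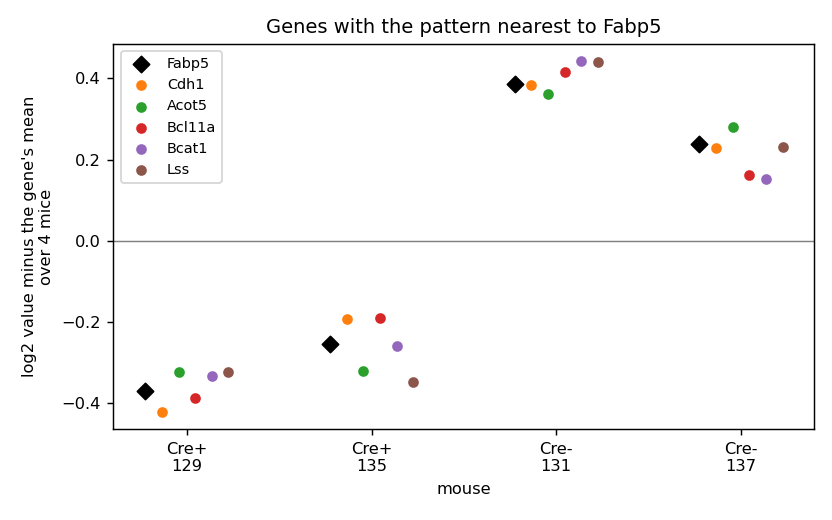
Log2 value of Fabp5 (black diamonds) and of the 5 genes nearest to it in each of the 4 mice, minus each gene's mean over the mice. All 6 genes lie below 0 in both Cre+ mice and above 0 in both Cre- mice.

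Markers of cell types that a DN4 sort could hold were read beside these values. Of 8 measured pre-T genes 0 had a lower mean in Cre+ mice, and they averaged 12.03 and 11.91 in Cre+ cells against 11.68 in each Cre- mouse. Cd3d, Cd3g, Cd3e and Rag1 were higher by 0.66, 0.37, 0.25 and 0.38. These passed among probe sets with 1 gene symbol (limma, adjusted p = 0.00432, 0.00979, 0.0180 and 0.0383), but not over all probe sets. Ptcra, Thy1, Notch1 and Bcl11b passed in neither test. Of all 19938 genes 190 passed as higher and 59 as lower among probe sets with 1 gene symbol. Of 6 double-positive stage genes 4 had lower means (median -0.34), with averages of 9.62 and 9.59 against 9.65 and 9.89. Ccr9 differed by -0.64 and passed among probe sets with 1 gene symbol (limma, adjusted p = 0.00743, against 0.199 over all probe sets). Cd8a differed by -0.61 without passing. Cd4 and Cd5 went the other way, by 0.54 and 0.40, also without passing. Macrophages and epithelia are known to express Fabp5. The 12 macrophage and granulocyte markers averaged 5.98 and 6.05 against 5.95 and 5.88, with 10 of them under the median of all probe sets. Of these 12, 3 had lower means (median 0.03). Lyz2 was higher in the Cre+ mice (7.56 and 7.59 against 6.79 and 6.29). It passed among probe sets with 1 gene symbol (limma, adjusted p = 0.0206, against 0.327 over all probe sets). The 8 thymic epithelial markers averaged 6.69 and 6.68 against 6.78 and 6.69. Of these 8, 5 had lower means (median -0.03). Epcam read 7.68 and 8.08 against 8.38 and 8.35, and Foxn1 lay between 6.35 and 6.39 in all mice. The keratin genes Krt8 and Krt18 had higher means, by 0.13 and 0.18. The 7 adipocyte markers had a median difference of 0.0036, with Adipoq between 5.36 and 5.42. The 7 measured B cell markers averaged 6.10 and 6.16 against 6.15 and 6.44, with 6 lower in Cre+ cells and 6 under the median of all probe sets. Of 6 DN2 and DN3 stage markers 5 had lower means (median -0.18), while Hes1 was higher by 0.91 (limma, adjusted p = 0.000467 among probe sets with 1 gene symbol and 0.0570 over all). Lower means were also found for 4 of 4 markers of gamma-delta T cells (median -0.12). Sox13 and Maf differed by only -0.02 and -0.03, with overlapping groups, and Cd163l1 by -0.21. Blk differed by -0.51 (limma, adjusted p = 0.0463 among probe sets with 1 gene symbol and 0.345 over all). Of 10 natural killer markers 7 lay under the median level and 4 had lower means (median 0.02), but Nkg7 differed by -1.04, more than Fabp5 (limma, adjusted p = 0.00114 among probe sets with 1 gene symbol and 0.0791 over all). The medians were 0.02 for dendritic cell markers, 0.03 for erythroid ones and 0.00 for endothelium and fibroblasts. The part of cell composition in the Fabp5 difference was not tested.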

How the data were processed

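Per the submitters' processing notes, the authors normalized the arrays with RMA and deposited a log2 value for every probe set in every mouse. That these are log2 units follows from their range. RMA's version and a genome build are not stated in those notes. Genes were named through the platform annotation: 21789 probe sets had 1 gene symbol, 1621 had several and 12146 were not listed. Genes found only in probe sets with several symbols were not used here.

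All 35556 probe sets were compared with limma 3.58.1 in R 4.3.3 (lmFit, eBayes with an intensity trend, 2 residual and 2.99 prior degrees of freedom), with Benjamini-Hochberg adjustment and a threshold of 0.05. The script was tested on simulated data. Differences are Cre+ minus Cre-. With 2 against 2 mice no exact two-sided permutation test can give a p under 0.333. No number pairs the mice, and 0 sample columns were left unused.

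The members, the 8 lists and the 12 marker lists were chosen with earlier results of these data known. Named were all members, the 3 genes with the smallest p in each list, any gene past the threshold, and the 5 genes nearest to Fabp5. Others (Ppard, Fabp4 and single markers) were named after their values were seen. Promoter windows were searched on both strands for the sterol response element, a longer form of it (0 of 8 member windows, 0.0731% of all), the E-box, the NF-Y and Sp1 boxes and the Ikaros core spelled out with the results. Some CCAAT matches overlap on opposite strands. The alternatives were scaling, filters, variance model, tested features, sex and leaving out each mouse.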

Additional observations from a re-analysis of the deposited data

How the results depend on the processing

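The number of probe sets called over all probe sets depended on the setting. It was 0 as reported and 10 after each array was centred on its median, 25 among probe sets above the 25th percentile of the mean level, 80 among those above the median and 266 among those with 1 gene symbol. It stayed 0 with repeated quantile normalization, eBayes without trend, robust eBayes, sex as a block and without any single mouse. Of the other fatty acid genes 2 were called among probe sets with 1 gene symbol and 0 in the other settings run. The median of the 9 members other than Fabp5 lay between -0.147 and -0.0764 when each mouse was left out in turn, with a lone mouse assumed to vary like the others, and between -0.11 and -0.10 in the other settings. The Fabp5 difference lay between -0.70 and -0.55 without single mice and between -0.63 and -0.61 otherwise. Fads1 changed sign, with values from -0.0055 (without mouse 129) to 0.12, and the other members kept their direction in every setting run, Fads2 and Elovl6 with values as low as 0.0022 and 0.0028. Without single mice the Srebf1 difference lay between -0.20 and -0.04, that of Acaca between -0.37 and -0.18, that of Pmp2 between -0.18 and -0.07, that of Fabp12 between 0.03 and 0.09 and that of Scp2 between 0.22 and 0.49. The labels pair no mouse of one group with one of the other. With sex, read from Xist and Kdm5d, as a block, 0 probe sets were called and every difference stayed as it was, since each group holds 1 mouse of each sex. Signal over background was not analysed here. This limits what can be said of dim probe sets and of that of Scd1, which lay just above the median level.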
